A study of Rattus norvegicus with 6 samples.

Results

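The genes that license and carry out DNA replication were examined as a group of 49, made up of the origin recognition complex, the loading factors, the MCM helicase and its activators, the sliding clamp and clamp loader, the single-strand binding protein, the replicative polymerases, the lagging-strand enzymes, nucleotide supply and topoisomerase II. They were chosen by name: every gene that any of 4 H3K27me3 libraries listed with a peak was kept if its symbol, whatever its case, was one of the 49. This gave 40 entries for 38 genes among 22427 listed genes. Of the 49, 11 had no entry, which were Orc1, Orc3, Cdc6, Mcm7, Mcm8, Mcm9, Cdc45, Gins4, Rpa3, Prim1 and Lig1. Dbf4 and Rrm2 had 2 entries each under different gene identifiers, and which identifier is the working gene and which a related copy is not given in the lists. Thus 77.6% of the 49 had an entry, against 69.0% of named protein-coding genes of the RefSeq annotation matched in the same way.

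The libraries came from primary cardiomyocytes of newborn Sprague Dawley rats, immunoprecipitated for histone H3 trimethylated at lysine 27 (H3K27me3). In the α-KG group the cells had been given 5 mM α-ketoglutarate for 24 h (2 libraries, called α-KG 1 and α-KG 2). In the control group they had been given phosphate-buffered saline for the same time (2 libraries, called control 1 and control 2). No genetic change is labelled in either group, and all cells were grown in the same serum-containing medium on coated plates. The labels do not say whether replicates were separate cultures or how many animals were pooled. For each library the deposited values are a list of genes with a peak, so a gene is listed or not listed, and the height, place and read depth of its peak are unknown. Absence from a list can mean that the mark was absent or that it was too weak to be called.

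α-KG is a metabolite of the tricarboxylic acid cycle and a cosubstrate of a class of enzymes that remove methyl groups from histones. H3K27me3 is placed by Polycomb repressive complex 2 and is known from genes held in a repressed state. Replication genes are known to be switched on by E2F factors as cells enter S phase, and cardiomyocytes are known to leave the cell cycle soon after birth. Origins are first marked by the origin recognition complex, the MCM ring is then loaded as an inactive helicase, and kinases and further subunits turn it into a moving fork.

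As background on the libraries, α-KG 1 and α-KG 2 listed 18120 and 19181 genes, and control 1 and control 2 listed 17245 and 18442. Of the cardiomyocyte markers examined, 9 of 10 had an entry, with 6 in α-KG 1, 6 in α-KG 2, 6 in control 1 and 7 in control 2. Of markers of other cells, fibroblast genes had 4, 5, 5 and 5 of 5 entries in the same order, endothelial genes 4, 4, 3 and 4 of 4, smooth muscle genes 2, 1, 1 and 2 of 2, and the immune markers 1 of 1 in each. A peak of a repressive mark at a marker gene does not show which cells carried it, so these lists do not test the labelled cell type. Their part in the results below was not tested.

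More replication genes were listed in α-KG 2 than in any other library. The α-KG libraries listed 23 entries (α-KG 1) and 36 entries (α-KG 2) of 40, and the control libraries listed 22 (control 1) and 24 (control 2). α-KG 1 lay between the controls and α-KG 2 stood alone. The mean was 29.5 ± 9.19 entries in α-KG libraries and 23.0 ± 1.41 in control libraries (SD, n = 2 each), a difference of 6.5 entries. This is smaller than the gap of 13 entries between the α-KG libraries, and without α-KG 2 the difference was 0. Without α-KG 1 it was 13. As shares of the 40 entries the libraries listed 57.5%, 90.0%, 55% and 60.0% in the order α-KG 1, α-KG 2, control 1 and control 2. Over all 22427 listed genes the shares in that order were 80.8%, 85.5%, 76.9% and 82.2%. Replication genes were thus below all genes in 3 libraries and above them in α-KG 2. The 40 entries are those that any library listed, and 10 of them entered through α-KG 2 alone. By construction this raises the α-KG 2 share and lowers the others, so the comparison of shares is no support for a difference. No p-value is given, because the genes were chosen with results of these libraries known, and 2 against 2 libraries cannot give an exact two-sided permutation p below 0.333.

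**Figure D1:**
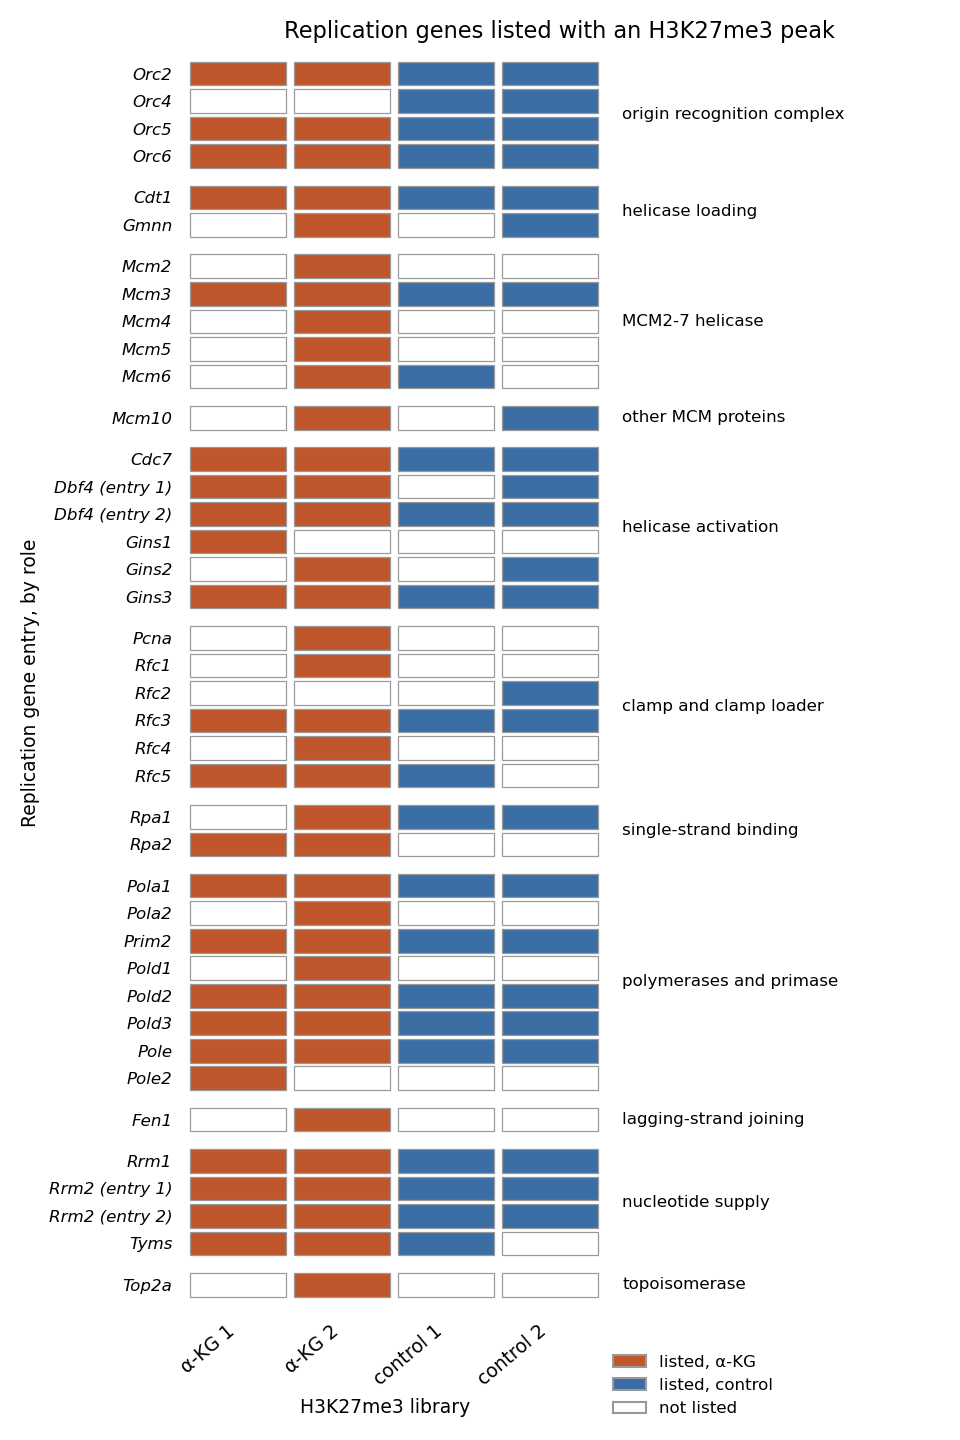
Listing of the 40 replication gene entries (rows, grouped by role) in each H3K27me3 library (columns), where a filled box is a gene listed with a peak and a white box one that is not. The α-KG 2 column holds 36 filled boxes, and the MCM ring and the clamp with its loader have 3 rows each that are filled in α-KG 2 alone.

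Of the 40 entries, 17 (42.5%) were listed in all 4 libraries, where 62.8% of all listed genes were, a difference that was not tested. They were Orc2, Orc5, Orc6, Cdt1, Mcm3, Cdc7, 1 entry of Dbf4, Gins3, Rfc3, Pola1, Prim2, Pold2, Pold3, Pole, Rrm1 and both entries of Rrm2. Listing in α-KG 2 and in no other library was seen for 10 entries (25.0%), where 6.96% of all listed genes had it, or 7.88% of listed genes with a symbol. These were Mcm2, Mcm4, Mcm5, Pcna, Rfc1, Rfc4, Pola2, Pold1, Fen1 and Top2a. The other libraries had few genes to themselves: Gins1 and Pole2 stood in α-KG 1 alone, Rfc2 in control 2 alone, and control 1 had 0 such genes. Over all listed genes 2.03% stood in α-KG 1 alone, 1.73% in control 1 alone and 2.27% in control 2 alone. Since α-KG 1 does not share the 10 genes, a difference between the treatments and a difference of 1 library cannot be told apart in them.

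At most 1 replication gene divided cleanly by treatment in each direction. Orc4, a subunit of the origin recognition complex, was listed in neither α-KG library and in both controls. It was 1 of 40 entries (2.5%), and 2.3% of all listed genes had this pattern. Rpa2, a subunit of the protein that coats single-stranded DNA, was listed in α-KG 1 and α-KG 2 and in no control library. It too was 1 of 40 entries, and 3.25% of all listed genes had this pattern. Both shares lie near those of all genes.

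Of the 4 origin recognition entries, Orc2, Orc5 and Orc6 were in all 4 libraries, as were 62.8% of all listed genes. With Orc4 the group had 3 of 4 entries in each α-KG library and 4 of 4 in each control. Whether these few entries differ from all listed genes was not tested. Of the loading factors, Cdt1, which brings the MCM ring to origins, was in all 4 libraries. Gmnn, encoding geminin, which holds Cdt1 inactive, was in α-KG 2 and control 2.

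The genes of the MCM ring were listed unevenly, although its subunits are known to form 1 helicase together. Mcm3 was in all 4 libraries, Mcm6 was in α-KG 2 and control 1, and Mcm2, Mcm4 and Mcm5 were in α-KG 2 alone. Of its 5 entries, α-KG 1 listed 1 and α-KG 2 listed 5, while control 1 listed 2 and control 2 listed 1. Mcm7 had no entry. Mcm2, Mcm4 and Mcm5 became entries through α-KG 2 alone, which by construction raises its count against the others. These counts are therefore no support for a difference. Over all listed genes the shares were 80.8% in α-KG 1, 85.5% in α-KG 2, 76.9% in control 1 and 82.2% in control 2. Mcm10, which helps the loaded helicase to start, was in α-KG 2 and control 2. Mcm8 and Mcm9, which act in repair by homologous recombination, had no entry by current symbol, but an older symbol of Mcm9, RGD1560557, was listed in all 4 libraries.

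Genes for activating the helicase were listed in most libraries, with exceptions. Cdc7, the kinase that phosphorylates the MCM ring, was in all 4 libraries, and so was 1 entry of its regulatory subunit Dbf4, while the other Dbf4 entry was missing from control 1. Of the GINS subunits, which join the ring in the active helicase, Gins3 was in all 4 libraries, Gins2 was in α-KG 2 and control 2, and Gins1 was in α-KG 1 alone. The group had 5 of 6 entries in α-KG 1, 5 in α-KG 2, 3 in control 1 and 5 in control 2. Over all listed genes the shares in the same order were 80.8%, 85.5%, 76.9% and 82.2%, and a difference from them was not tested.

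The genes of the sliding clamp and its loader were also listed unevenly. Pcna, the clamp that holds polymerases on DNA, and the loader subunits Rfc1 and Rfc4 were in α-KG 2 alone. Rfc3 was in all 4 libraries, Rfc5 was missing from control 2, and Rfc2 was in control 2 alone. Of the 6 entries, α-KG 1 listed 2 and α-KG 2 listed 5, while each control listed 2. Pcna, Rfc1 and Rfc4 became entries through α-KG 2 alone, which by construction raises its count against the others. Here too the counts are no support for a difference. Rpa1, the large subunit of the single-strand binding protein, was missing from α-KG 1 and was in the other libraries.

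Among the polymerases, the catalytic subunit genes Pola1 of polymerase α and Pole of polymerase ε were in all 4 libraries, and Pold1 of polymerase δ was in α-KG 2 alone. The accessory genes Pold2 and Pold3 and the primase gene Prim2 were in all 4. Pola2, the accessory subunit of polymerase α, was in α-KG 2 alone, and Pole2, that of polymerase ε, in α-KG 1 alone. Of these 8 entries, α-KG 1 listed 6 and α-KG 2 listed 7, and each control listed 5. Genes in a single library count as entries, which by construction raises the count of that library against the others. Fen1, the nuclease that trims Okazaki fragments, and Top2a, the topoisomerase that untangles replicated chromosomes, were in α-KG 2 alone.

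Nucleotide supply genes were listed in nearly every library. Rrm1 and both entries of Rrm2, the subunits of ribonucleotide reductase, were in all 4 libraries, and Tyms, which makes thymidylate, was missing from control 2. The 4 entries were thus all in both α-KG libraries and in control 1, and 3 of them were in control 2. Over all listed genes 62.8% were in all 4 libraries. None of the 4 entries was in α-KG 2 alone, where 6.96% of all listed genes were. With a share this low, absence among 4 entries is no result about these genes.

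**Figure D2:**
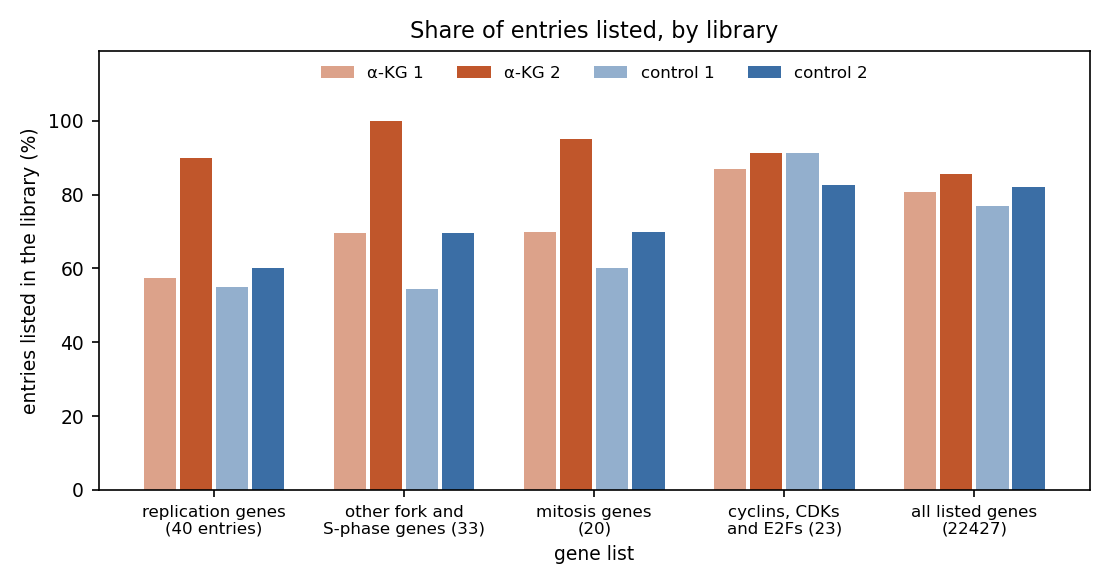
Percentage of the entries of each gene list that each H3K27me3 library listed, with α-KG bars left of control bars in each set and the number of entries in brackets. For replication genes α-KG 2 stands at 90.0% and the other libraries between 55% and 60.0%, whereas for all listed genes the bars run from 76.9% to 85.5%. Genes listed in α-KG 2 alone count as entries, which by construction raises its bars and lowers the others.

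Other genes of the replication fork and of S phase showed similar values. Of 40 such genes on a separate list, 33 had an entry, and of these α-KG 1 listed 23 and α-KG 2 listed 33, while control 1 listed 18 and control 2 listed 23. Genes in α-KG 2 alone again count as entries, which by construction raises its count against the others. Listing in all 4 libraries was seen for 16 of the 33 (48.5%), and listing in α-KG 2 alone for 8 (24.2%). Over all listed genes these shares were 62.8% and 6.96%. Those reported here were Clspn (claspin, a fork checkpoint mediator), Chtf18 and Dscc1 (parts of an alternative clamp loader), Recql4 (a helicase that acts at origins), Lrwd1 (an origin recognition partner), Ssrp1 (a histone chaperone) and Uhrf1 (which carries DNA methylation through replication). None of the 33 divided by treatment in either direction, and few of all listed genes did (2.3% and 3.25%).

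Mitosis genes had 14 of 20 entries in α-KG 1, 19 in α-KG 2, 12 in control 1 and 14 in control 2. Of the 20, 5 (25.0%) were in α-KG 2 alone, namely Aurkb, Bub1, Cdc20, Kif2c and Pttg1. These too count as entries, which by construction raises the α-KG 2 count against the others. Of 23 entries of cyclins, CDKs and E2F factors, α-KG 1 listed 20 and α-KG 2 listed 21. Control 1 listed 21 of them and control 2 listed 19. Of the 23, 1 (4.35%) was in α-KG 2 alone, namely Cdk2, where 6.96% of all listed genes were. Cdc25b, a phosphatase that activates CDKs, was in α-KG 1 and α-KG 2 and in no control library. It was 1 of 23 entries (4.35%), and 3.25% of all listed genes had this pattern. None of the mitosis genes divided by treatment. Over all listed genes 2.3% were in both controls alone and 3.25% in both α-KG libraries alone. With shares this low, their absence among 20 entries is no result about these genes. In the cyclin, CDK and E2F list 73.9% were in all 4 libraries, against 42.5% of the replication genes and 62.8% of all listed genes. Whether these shares differ beyond chance was not tested. These lists were written with results of the series known, so they are no independent evidence.

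**Figure D3:**
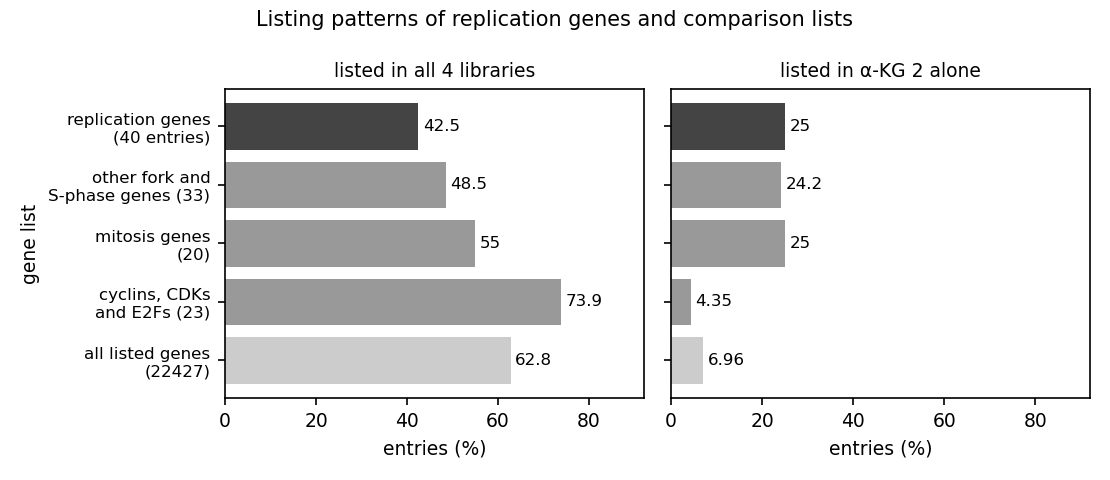
Percentage of entries listed in all 4 H3K27me3 libraries (left) and in α-KG 2 alone (right) for the replication genes, 3 comparison lists and all listed genes, with the number of entries in brackets. Replication genes, other fork and S-phase genes and mitosis genes have 24.2% to 25.0% of entries in α-KG 2 alone, and all listed genes 6.96%.

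The protein domains that the lists name run through several of the roles. Of the 40 entries, 12 carried the P-loop nucleoside triphosphatase domain, which binds ATP, and these were the listed MCM and RFC subunits with Orc4 and Orc5. Of the 12, 3 were in all 4 libraries and 5 in α-KG 2 alone, where 64.3% and 8.45% of all 852 listed genes with this domain had those patterns. Of the 6 with an OB-fold, a fold that binds nucleic acid, 1 was in all 4 libraries and 2 were in α-KG 2 alone. Among all 83 listed genes with an OB-fold, 57.8% and 6.02% had those patterns. The replication genes in α-KG 2 alone with either domain are MCM and RFC genes already counted above, which became entries through that library alone. The domain counts are therefore no further evidence, and whether the shares differ was not tested.

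Neighbouring genes can share a peak, so the protein-coding genes that flank each replication gene in RefSeq (assembly GRCr8) were examined. Of the 10 replication genes in α-KG 2 alone, 2 had a flanking gene with the same pattern, which were Mcm5 beside the heme oxygenase gene Hmox1 and Pold1 beside the transcription factor gene Spib. Over all 1288 placed genes in α-KG 2 alone, 277 (21.5%) had such a neighbour. For Mcm2, Mcm4, Fen1 and Top2a the genes on both sides were listed in all 4 libraries, among them Prkdc beside Mcm4 and Igfbp4 beside Top2a. Orc4 likewise lay between Acvr2a and Mbd5, which were both in all 4 libraries. Rpa2 lay beside Themis2, which had the same listing. Rfc2 lay beside Lat2, which was also in control 2 alone. The flanking genes named here were chosen after their values were seen. Of all listed genes 62.8% were in all 4 libraries, so such neighbours are common. How often other genes lie between 2 of them, or beside a gene of their own listing as Rpa2 and Rfc2 do, was not counted.

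Promoter sequence was compared across the listing patterns because the genes share a known regulator and were not listed together. RefSeq promoter windows of assembly GRCr8, from 250 bases before to 50 after the gene start, were found for 42 of the 49 genes. No window was found for Mcm4, Orc1, Orc4, Cdc6, Gins4, Rpa3 or Rrm2. The windows were searched on both strands for 4 words of the E2F type, TTTCCCGC, TTTCGCGC, TTTGCCGC and TTTGGCGC, and for CCAAT, the word of the CCAAT box. The stretches below run from 150 bases before the gene start to 30 bases of the transcribed side, 5′ to 3′ on the gene's strand. Capitals mark E2F-type words and CCAAT words of either strand, and where words overlap (an E2F-type word with one on the other strand, or with CCAAT in Mcm7) the capitals run together. The first 5 are subunits of the MCM ring, shown because their genes were listed so unevenly. The next are the clamp gene Pcna and Top2a (both in α-KG 2 alone), Rpa2 (in α-KG 1 and α-KG 2) and Rfc3 (in all 4).
Mcm2 (chr4:122918065-122918244, minus strand): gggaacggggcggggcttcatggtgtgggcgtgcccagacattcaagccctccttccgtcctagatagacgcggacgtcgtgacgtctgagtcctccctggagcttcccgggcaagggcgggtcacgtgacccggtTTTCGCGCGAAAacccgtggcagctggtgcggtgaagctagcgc
Mcm5 (chr19:13488663-13488842, plus strand): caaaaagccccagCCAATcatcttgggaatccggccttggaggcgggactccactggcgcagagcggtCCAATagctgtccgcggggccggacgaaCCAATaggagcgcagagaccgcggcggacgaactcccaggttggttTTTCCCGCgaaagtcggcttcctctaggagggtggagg
Mcm6 (chr13:42404323-42404502, minus strand): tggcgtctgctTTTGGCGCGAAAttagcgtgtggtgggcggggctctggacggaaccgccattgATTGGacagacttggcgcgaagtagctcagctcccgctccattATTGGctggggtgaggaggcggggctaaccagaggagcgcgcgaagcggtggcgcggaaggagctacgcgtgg
Mcm3 (chr9:30733717-30733896, minus strand): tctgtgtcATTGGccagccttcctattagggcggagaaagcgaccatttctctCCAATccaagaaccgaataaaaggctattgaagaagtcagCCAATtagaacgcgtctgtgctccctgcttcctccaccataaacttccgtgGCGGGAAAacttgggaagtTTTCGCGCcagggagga
Mcm7 (chr12:22163149-22163328, minus strand): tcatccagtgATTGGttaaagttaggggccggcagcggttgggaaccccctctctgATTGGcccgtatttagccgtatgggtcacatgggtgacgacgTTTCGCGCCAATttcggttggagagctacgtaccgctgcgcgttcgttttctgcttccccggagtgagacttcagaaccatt
Pcna (chr3:139955791-139955970, minus strand): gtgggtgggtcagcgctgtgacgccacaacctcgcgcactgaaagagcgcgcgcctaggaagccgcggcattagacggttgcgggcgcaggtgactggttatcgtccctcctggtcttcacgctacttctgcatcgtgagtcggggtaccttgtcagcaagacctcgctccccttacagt
Top2a (chr10:84473064-84473243, minus strand): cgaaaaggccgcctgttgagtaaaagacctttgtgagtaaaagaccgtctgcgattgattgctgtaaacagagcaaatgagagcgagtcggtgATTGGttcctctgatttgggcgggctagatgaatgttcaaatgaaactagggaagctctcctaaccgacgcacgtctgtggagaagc
Rpa2 (chr5:150260622-150260801, plus strand): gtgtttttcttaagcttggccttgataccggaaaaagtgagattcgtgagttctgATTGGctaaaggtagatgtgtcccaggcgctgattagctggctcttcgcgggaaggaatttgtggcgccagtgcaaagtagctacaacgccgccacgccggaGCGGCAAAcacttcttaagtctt
Rfc3 (chr12:5836418-5836597, plus strand): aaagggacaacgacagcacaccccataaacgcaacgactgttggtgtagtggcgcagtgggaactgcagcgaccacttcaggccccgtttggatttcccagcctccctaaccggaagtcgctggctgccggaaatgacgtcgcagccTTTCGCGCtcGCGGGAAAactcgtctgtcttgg

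Over the whole windows, an E2F-type word stood in 20 of 42 (47.6%), against 2.25% of all 27457 promoter windows and 2.82% of the 19005 of protein-coding genes. An E2F-type word stood in 2 of 9 windows of genes in α-KG 2 alone, in 8 of 14 of genes in all 4 libraries, in 6 of 12 with other patterns and in 4 of 7 with no entry. Here Mcm9 counts as no entry, by its current symbol, although its older symbol was in all 4 libraries. Dbf4, whose entries differ in pattern, counts under other patterns. Over all protein-coding windows it stood in 3.61% of 997 in α-KG 2 alone and 3.07% of 7590 in all 4 libraries. Whether the replication gene shares differ between patterns was not tested. In the MCM ring it stood in Mcm2 and Mcm5 (α-KG 2 alone), Mcm6 (α-KG 2 and control 1), Mcm3 (all 4) and Mcm7 (no entry). Mcm4 had no window and was not searched. The printed stretches of Pcna and Top2a hold none of the 4 E2F-type words. A CCAAT word stood in 24 of the 42 windows (57.1%), against 37.7% of all windows, and its share was 55.6% for genes in α-KG 2 alone and 57.1% for genes in all 4 libraries.

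CpG dinucleotides, whose density is known to accompany Polycomb marking, overlapped between the patterns. The windows of genes in α-KG 2 alone held a median of 27 CpG (11 to 38), and those of genes in all 4 libraries a median of 22.5 (2 to 33). The lowest count was 2 in Orc2, which was in all 4 libraries, and the highest was 46 in Dbf4. The 42 windows together had a median of 23.0, against 12 in protein-coding windows. Among protein-coding windows the median was 18 for genes in α-KG 2 alone and 20 for genes in all 4 libraries. A match is a description of letters, and since peak positions are unknown it is not known whether any peak lay at these windows.

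**Figure D4:**
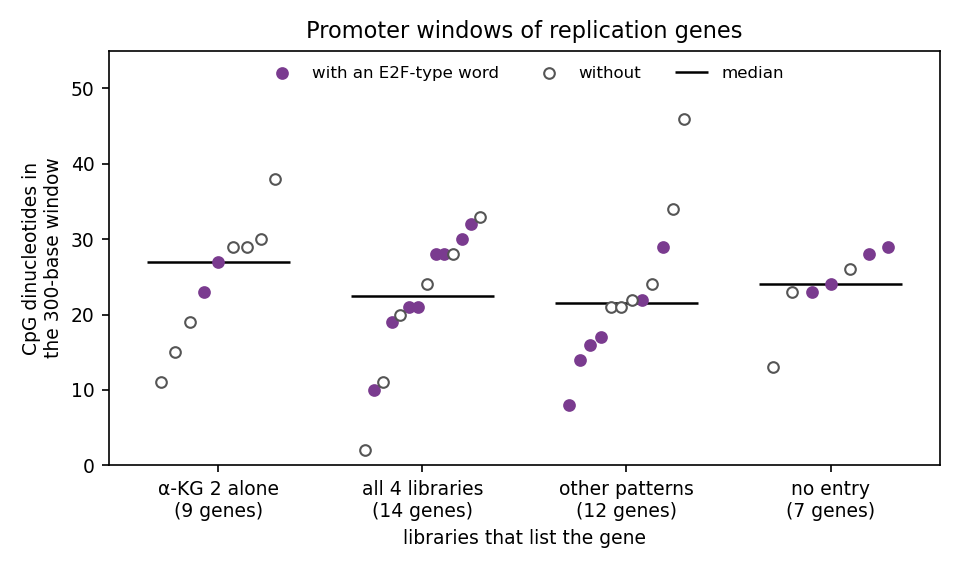
Number of CpG dinucleotides in the RefSeq promoter window of each replication gene (points), grouped by the H3K27me3 libraries that list the gene, with lines at the group medians and filled points where the window holds an E2F-type word. The ranges of the groups overlap, and the filled points lie in every group, 2 of 9 in α-KG 2 alone and 8 of 14 in all 4 libraries. Whether these shares differ was not tested. Mcm9 is placed under no entry by its current symbol, and Dbf4, whose entries differ in pattern, under other patterns.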

How the data were processed

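The comparison rests on 2 H3K27me3 libraries of neonatal rat cardiomyocytes given α-KG and 2 of cells given saline, with groups and replicate numbers as labelled. Another 2 samples, titled as inputs and labelled IgG, were not used here. The authors deposited, for each library, the Ensembl gene ID, symbol and protein domains of each gene that has a peak, and nothing else. CASAVA, BWA, MACS2 and the genome build rn6 are named, per the submitters' processing notes. The role of each tool, the rule tying peaks to genes and the read depth were not given in the sources used here, so no interval that needs depth was computed.

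Lists were counted in Python 3.11.15 (pandas 2.3.3) and drawn in matplotlib 3.10.9. Entries (gene IDs) were counted by the libraries that list them. The rule for named genes takes every member, and comparison genes only where they share a pattern described, and 1 gene that it names is not reported here. Members, lists and comparisons were chosen with earlier results of these data known. Counting was tested on simulated lists. RefSeq tables of GRCr8, not the authors' build, gave names, gene order and promoter sequences. Alternatives were leaving out each library, older symbols, distinct symbols and pairing by replicate number.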

Additional observations from a re-analysis of the deposited data

How the results depend on the processing

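The difference in listed replication genes was 0 to 13 entries when 1 library was left out, with 0 without α-KG 2 and 13 without α-KG 1, and it was 6.5 with older symbols and 6 over distinct symbols. Genes in both controls and neither α-KG library numbered 1 to 2 (2 without α-KG 2 and 2 without control 1), and genes in α-KG 1 and α-KG 2 but no control numbered 2 to 11. This second count was 11 without α-KG 1, 3 without α-KG 2, 3 without control 1 and 2 without control 2. Fewer libraries then had to share a pattern, which by construction can only raise such counts. Genes in all libraries numbered 17 to 19 and genes in α-KG 2 alone 11 to 13 without 1 other library. Older symbols gave 18 genes in all 4 libraries and distinct symbols 16, and the genes in α-KG 2 alone were 10 under both. A replicate block, which compares libraries of the same number, gave the same 6.5 entries by construction, made of 1 entry for number 1 and 12 for number 2. It gave 1 gene in each direction, again by construction. Lists without depth or height do not tell a peak just above detection from a strong one, which limits every count here.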

Other observations

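Some heart muscle genes lie beside replication genes in the RefSeq gene order and were listed as follows. Myl7, an atrial myosin light chain gene beside Pold2, was in α-KG 2 alone, whereas Pold2 was in all 4 libraries. Pln, encoding the calcium pump regulator phospholamban, lies beside Mcm9 and was in all 4 libraries, as was the older symbol of Mcm9. Mylk3, a heart myosin light chain kinase gene beside Orc6, was in all 4 libraries, as was Orc6. These genes were chosen after their values were seen. Over all listed genes 62.8% were in all 4 libraries and 6.96% in α-KG 2 alone.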
